A study of Danio rerio with 4 samples.

Results

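Blood vessels grow and settle in response to secreted signals that neighbouring cells make. Vegfa ligands act through the receptors Kdr, Kdrl and Flt1 on endothelial cells. In mammals Vegfc and Vegfd act mainly through Flt4 and are best known for lymphatic growth. Angiopoietins act through the receptor Tek, where angiopoietin 1 is an activator and angiopoietin 2 is made largely by endothelium itself. Apelin is a small peptide ligand of G protein-coupled apelin receptors, and in mouse it marks sprouting endothelial tip cells. In the zebrafish heart, which regrows muscle and vessels after loss of the ventricle's tip, these signals matter for how new coronary vessels enter the regrowing tissue.

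The 10 genes described here are the VEGF ligands vegfaa, vegfab, vegfba, vegfc and vegfd, the angiopoietins angpt1, angpt2a and angpt2b, the apelin ligand gene apln and the apelin receptor gene aplnra. They are 10 of the 24438 gene symbols in the count tables, and they were taken by symbol, each from a single feature. Vegfaa and vegfab are duplicated zebrafish counterparts of mammalian VEGFA.

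Cells came from the heart ventricles of AB strain zebrafish and were sorted by the pdgfrb:EGFP reporter. Pdgfrb is a platelet-derived growth factor receptor of mural cells (pericytes and vascular smooth muscle) and some fibroblasts. The 4 groups had 1 library each. Wildtype fish of 6 months carried 3 transgenes, pdgfrb:EGFP with cxcl12b:Citrine and with fli1a:DsRed. Mutant fish of 6 months carried the same 3 transgenes and the um148 allele of pdgfrb (pdgfrb-/-). Fish of 18 months carried pdgfrb:EGFP and cxcl12b:Citrine and were either uninjured or taken 7 days after the apex of the ventricle was amputated. The mutation is in all cells, the number of fish behind a library is not given in the sources used here, and age and the fli1a:DsRed transgene differ between the 2 pairs, so the pairs were not compared with each other.

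The tables hold UMI counts (unique molecular identifiers, counts of captured RNA molecules) from a 3' kit. The cells kept for the comparisons were 947 in wildtype (1983524 UMIs), 1119 in mutant (2772269 UMIs), 2003 in uninjured (7912205 UMIs) and 1388 in injured (6675514 UMIs). Median UMIs per cell ranged from 1729 in wildtype to 3651 in injured cells. Any 2 libraries shared between 0 and 2 kept cell barcodes. Levels are given as CPM, UMIs per 1000000 UMIs of the cells concerned. With 1 library per group no difference has a replicate check and no p-value is given. All intervals are 95% intervals (Poisson for levels, Clopper-Pearson for shares, conditional binomial for ratios), and they and the limits set by a count of 0 (3 UMIs or 3 cells) cover counting error only. UMIs of pdgfrb, the mutated gene, numbered 115 in wildtype and 7 in mutant cells, and where the um148 lesion lies relative to the counted 3' end is not given in the sources used here.

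Cells were clustered without the 10 genes and without the pathway genes named below, and clusters were named from marker genes, hence the ending "-like". Cardiomyocyte-like cells were the largest class in each library (613 cells or 64.7% in wildtype, 788 or 70.4% in mutant, 963 or 48.1% in uninjured and 633 or 45.6% in injured), although the sort was for pdgfrb:EGFP, and EGFP UMIs were present in 0.653%, 2.03%, 0.831% and 0.790% of them. Fibroblast-like cells numbered 114, 132, 125 and 137 in the same order. Mural-like cells numbered 92, 0, 19 and 18. A cluster led by c4b and krt91 held 8, 19, 184 and 83 cells and stayed unnamed, since its highest marker list was the fibroblast list and a leading gene, krt91, is an epicardial marker. It was pooled with fibroblast-like and epicardium-like cells (3, 1, 26 and 24) in a set of 125, 152, 335 and 244 cells. Endothelium- and endocardium-like cells were almost limited to 18 months, with 6, 6, 369 and 267 cells, in a large cluster led by spock3 and a small one of 17 uninjured and 24 injured cells led by plvapb. Thrombocyte-like cells, the nucleated fish counterpart of platelets, were present at 18 months only, with 11 and 19 cells. Their thrombocyte markers summed to 6631 CPM in uninjured and 5840 CPM in injured cells. Endothelium and endocardium markers there summed to 5981 and 8095 CPM, and cardiomyocyte markers to 1430 and 8095 CPM. The part of this mixture in the levels given below for thrombocyte-like cells was not tested.

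Of the 10 genes, 6 had at least 1 UMI in wildtype, 7 in mutant, 8 in uninjured and 9 in injured cells. No angpt2b UMI was found in any kept cell of the 4 libraries, and vegfba had 1 UMI in all, in an injured epicardium-like cell. The distribution of the other 8 genes over classes is shown in the plot of levels by class and library. The shares of a gene's UMIs below are over all 4 libraries unless a library is named.

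**Figure D1:**
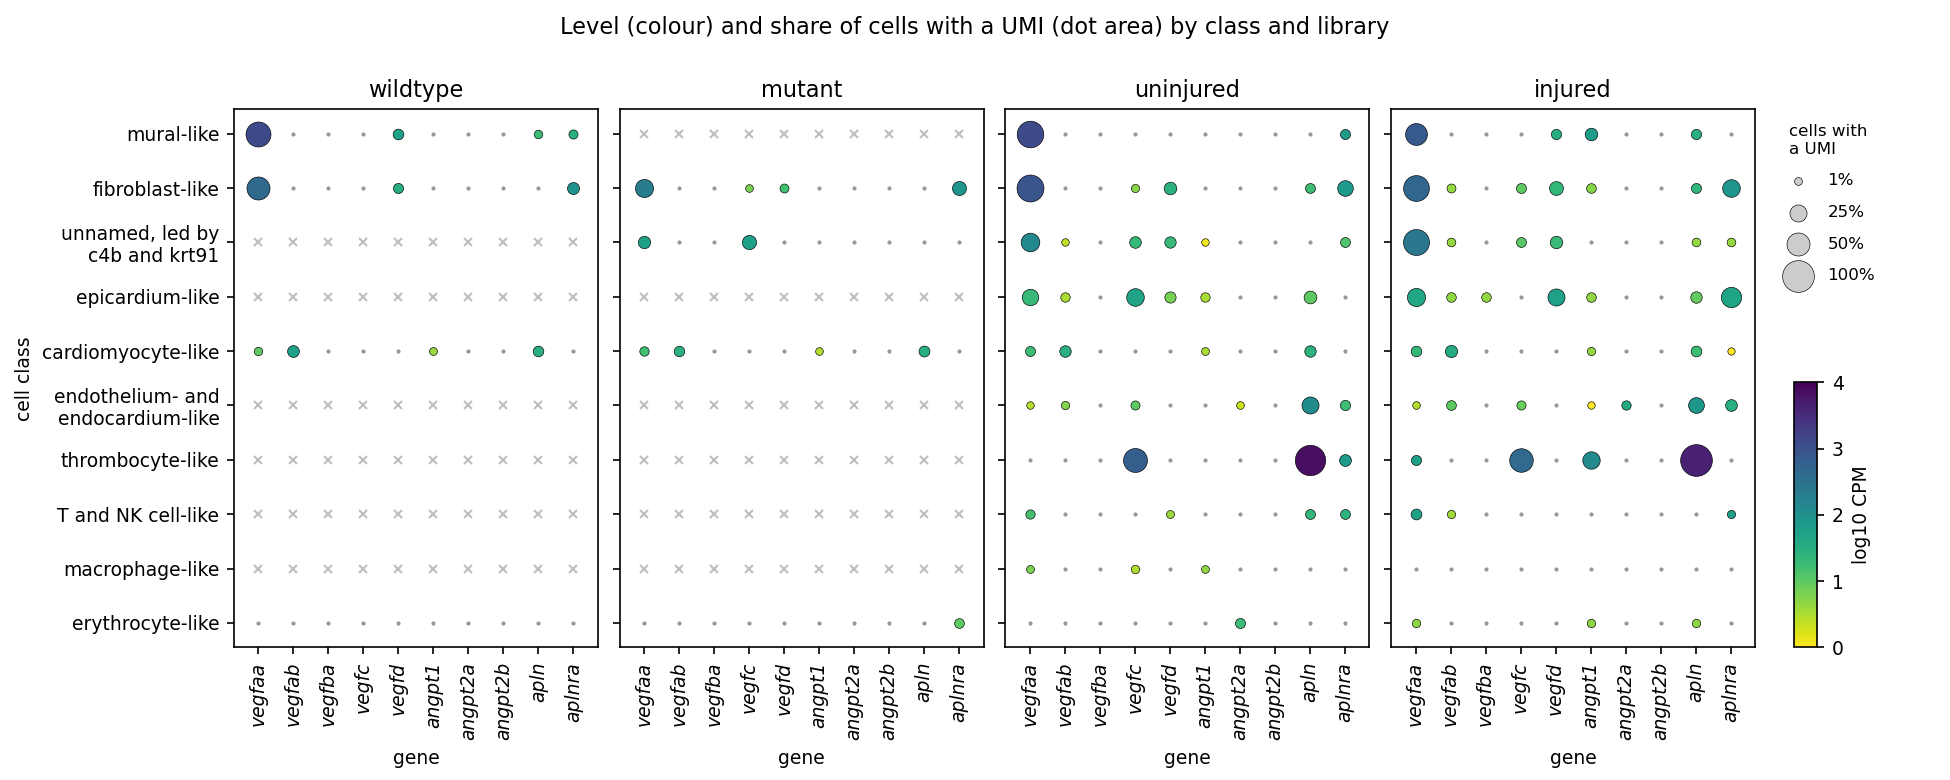
Levels of the 10 genes (x axis) in 10 cell classes (y axis), 1 panel per library. Colour is log10 CPM, dot area is the percentage of cells with a UMI, a small grey point is 0 UMIs and a cross marks a class with too few cells in that library to plot. vegfaa is strongest in mural-like and fibroblast-like cells, apln in thrombocyte-like cells, and angpt2b is at 0 throughout.

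Among the VEGF ligands, vegfaa was the gene of mural-like and fibroblast-like cells. Fibroblast-like cells were 9.31% of all cells and held 65.6% of the 1900 vegfaa UMIs, and mural-like cells were 2.36% of cells and held 10.7%. In mural-like cells vegfaa was at 1301 CPM in wildtype (140 UMIs, interval 1094 to 1535), at 1280 CPM in uninjured (38 UMIs, 906 to 1757) and at 771 CPM in injured cells (25 UMIs, 499 to 1138). The intervals of the uninjured and injured libraries overlap, and with under 20 cells in each no ratio was computed. Of the 92 wildtype mural-like cells, 55 had at least 1 vegfaa UMI and 14 had 4 or more. In fibroblast-like cells it was at 452 CPM in wildtype (99 UMIs, 367 to 550), 228 CPM in mutant (71 UMIs, 178 to 288), 916 CPM in uninjured (527 UMIs, 840 to 998) and 486 CPM in injured cells (549 UMIs, 446 to 529).

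Below these classes the uninjured library gave the following order of vegfaa levels. The cluster led by c4b and krt91 was at 129 CPM (106 to 155), epicardium-like cells at 20.3 CPM (7.44 to 44.2), cardiomyocyte-like cells at 17.5 CPM (13.4 to 22.5), T and NK cell-like cells at 15.4 CPM (4.21 to 39.5), macrophage-like cells at 6.05 CPM (1.65 to 15.5) and endothelium- and endocardium-like cells at 2.78 CPM (0.758 to 7.12). The intervals of mural-like and fibroblast-like cells overlap in this library. So do those of epicardium-like, cardiomyocyte-like, T and NK cell-like and macrophage-like cells. An overlap does not show that levels are alike, and no ratio between classes was computed. The interval of endothelium- and endocardium-like cells overlaps those of macrophage-like and T and NK cell-like cells. All 4 macrophage-like UMIs were in 1 of 97 cells, and 3 of the 4 endothelium- and endocardium-like UMIs were in 1 cell. The uninjured T and NK cell-like cells also had fibroblast markers at 1007 CPM, and the part of this in their vegfaa level was not tested. Thrombocyte-like cells had 0 vegfaa UMIs in the uninjured and 2 in the injured library. The step from fibroblast-like cells to the c4b and krt91 cluster is larger than the counting error. In endothelium- and endocardium-like cells, which carry the receptors, 0.542% of uninjured and 0.749% of injured cells had a vegfaa UMI. Median depths there were 3752 and 4454 UMIs. Cardiomyocyte-like cells had one in 5.19% and 6.32% of cells at 2919 and 3099 UMIs. Barcodes left out by the filters had vegfaa at 8.84 CPM in uninjured and 10.6 CPM in injured. The level of free RNA was not estimated, and its part in these shares was not tested.

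**Figure D2:**
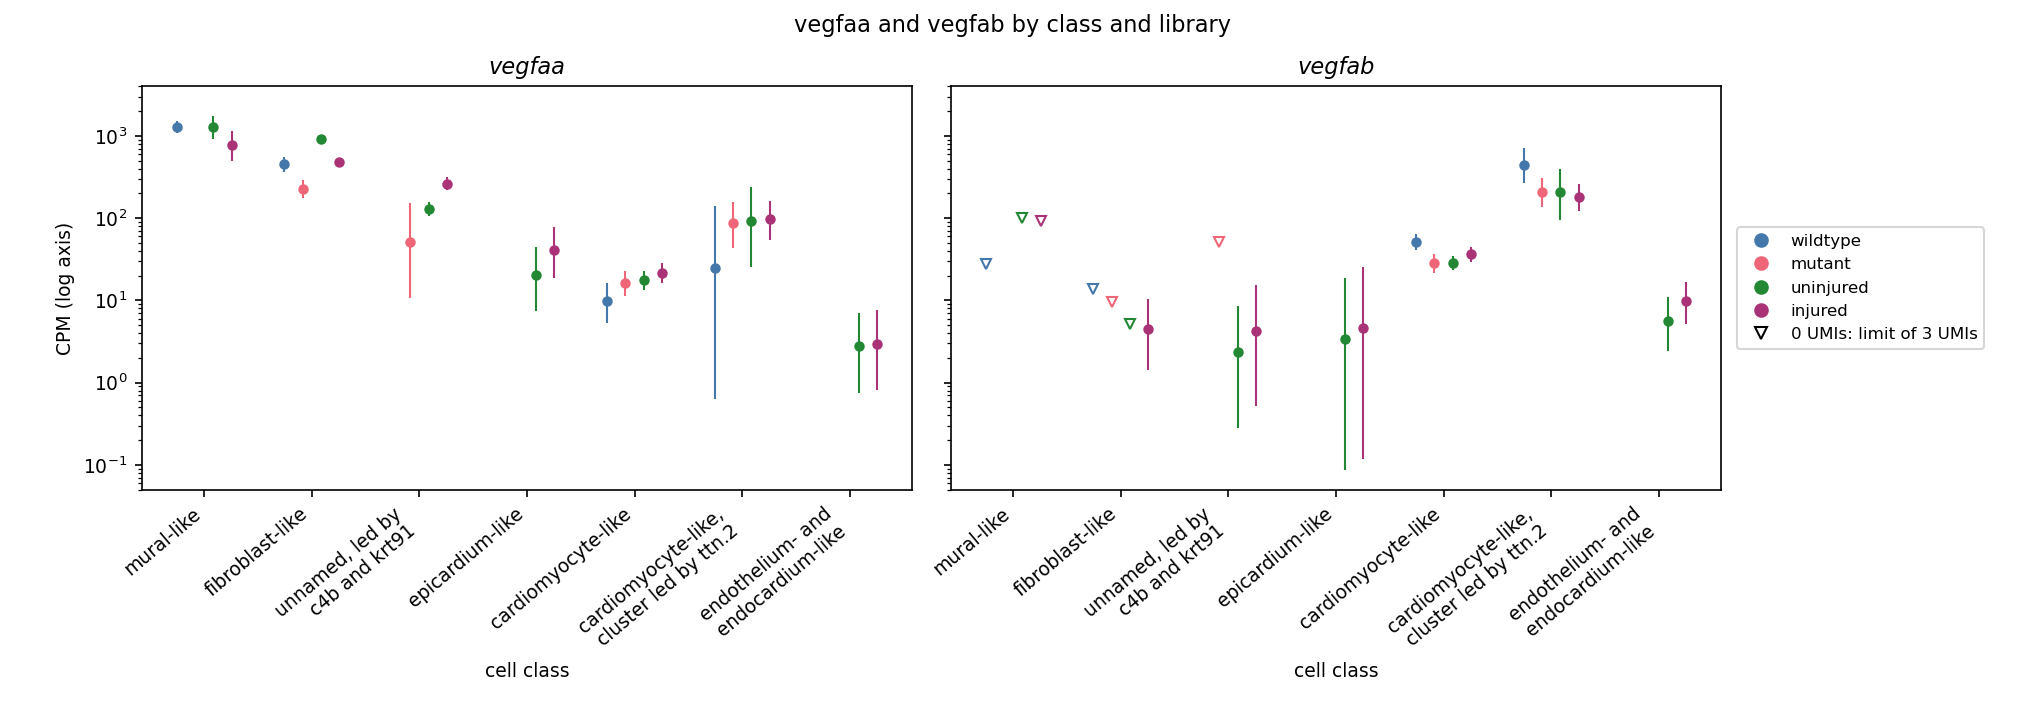
CPM of vegfaa (left) and vegfab (right) on a log axis by cell class (x axis) and library (colour), with 95% Poisson intervals as bars and open triangles at the limit that 0 UMIs allow. vegfaa is above 100 CPM in mural-like and fibroblast-like cells of every library plotted, and vegfab in the cardiomyocyte-like cluster led by ttn.2.

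The first comparison asks which vessel signals differ between pdgfrb mutant and wildtype ventricle cells of the same age. A gene is called higher or lower where its ratio is beyond 1.5-fold and the interval of the ratio excludes no difference, among genes whose UMIs in the compared libraries sum to 20 or more. Over all kept cells 4 of the 10 genes could be measured in this way, and vegfaa and vegfab were lower, while apln and aplnra met neither call. Of 6564 genes measured in that comparison, 16.0% were lower and 5.26% higher. The median log2 ratio was -0.56 over the 4 genes and -0.16 over all 6564.

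vegfaa had 257 UMIs in all wildtype cells and 107 in all mutant cells, or 129.6 CPM (114 to 146) and a level between 31.6 and 46.6 CPM, a log2 ratio of -1.75 (-2.09 to -1.42). In a sum over all cells, fewer cells of a type and less RNA per cell cannot be told apart. Here the named classes differ: mural-like cells held 54.5% of the wildtype vegfaa UMIs and numbered 0 in the mutant. The 19 mutant cells of the c4b and krt91 cluster had mural markers at 3821 CPM and endothelium and endocardium markers at 8938 CPM. Wildtype mural-like cells had 33490 and 8362 CPM, and uninjured cells of that cluster 2085 and 183 CPM. Whether some of those 19 are mural cells was not tested. With mural-like cells left out of both libraries, a comparison chosen after the data were seen, the wildtype level was 62.4 CPM (117 UMIs) and the mutant level as before, a log2 ratio of -0.69 (-1.08 to -0.30). The difference was thus smaller without mural-like cells and just past the 1.5-fold line. TMM scaling, which moved log2 ratios over all kept cells of this pair by 0.17, was not applied to that comparison.

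Within fibroblast-like cells vegfaa was also lower in the mutant, 228 against 452 CPM, a log2 ratio of -0.99 (-1.45 to -0.53). There 2 of the 10 genes could be measured and 1 was lower, where 16.4% of 2269 genes were lower and 5.16% higher. A vegfaa UMI was found in 57 of 114 cells in wildtype and 38 of 132 in mutant (28.8%), although the mutant cells were sequenced more deeply, with medians of 1704.5 and 2180 UMIs. After each cell was thinned to 500 UMIs the shares were 22.8% and 7.58%, and no cell was too shallow for it. The summed level of the 14 fibroblast markers in these cells was 20800 CPM in wildtype and 13820 in mutant, that of the 14 epicardial markers 8127 and 13920, and that of the 12 mural markers 1050 and 1269; the part of this in the vegfaa ratio was not tested. In the pooled fibroblast and epicardium set, where 16.9% of 2588 genes were lower and 4.25% higher, the log2 ratio of vegfaa was -1.03 (-1.48 to -0.58).

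In cardiomyocyte-like cells the values of vegfaa ran the other way without meeting the call: 14 UMIs (9.78 CPM) in wildtype and 33 (16.3 CPM) in mutant cells, a log2 ratio of 0.73 with an interval from -0.21 to 1.75. A UMI was present in 12 of 613 and 30 of 788 cells. In the cardiomyocyte-like cluster led by ttn.2, vegfaa was present in 1 of 28 wildtype and 8 of 65 mutant cells. In the cluster led by zgc:122979 and cited4a its log2 ratio was 0.19 (-0.99 to 1.43). Barcodes left out by the filters had 0 vegfaa UMIs in wildtype and 7 (22.2 CPM) in mutant. The part of these in the ratio was not tested.

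**Figure D3:**
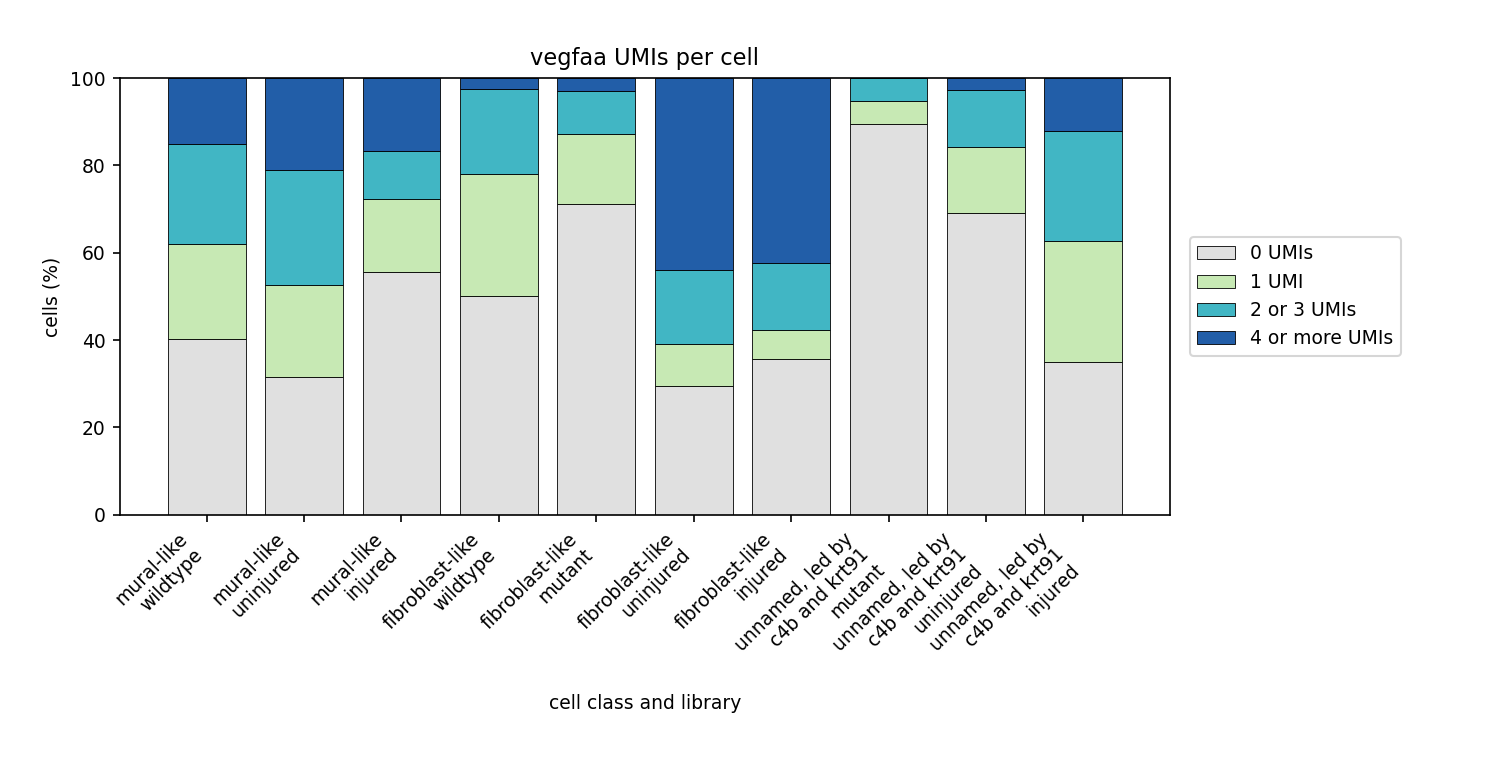
Percentage of cells (y axis) with 0, 1, 2 or 3, and 4 or more vegfaa UMIs in mural-like cells, fibroblast-like cells and the cluster led by c4b and krt91, 1 bar per library with at least 10 such cells. Among fibroblast-like cells 57 of 114 wildtype and 38 of 132 mutant cells had a UMI, and in the c4b and krt91 cluster 57 of 184 uninjured and 54 of 83 injured cells did.

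The second comparison asks how the same signals differ 7 days after amputation. Over all kept cells 8 of the 10 genes could be measured, and angpt2a and aplnra were higher and none lower, where 22.8% of 11298 genes were higher and 3.83% lower. The median log2 ratio was 0.46 over the 8 genes and 0.31 over all 11298, so the shares and medians of the 10 genes sit close to those of the whole table.

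For vegfaa the ratio had opposite signs in neighbouring cell sets. Over all cells it had 755 UMIs (95.4 CPM) in uninjured and 781 (117 CPM) in injured cells, a log2 ratio of 0.29 (0.15 to 0.44), which became -0.01 with edgeR's TMM scaling. In fibroblast-like cells the CPM was lower after injury, 486 against 916, a log2 ratio of -0.91 (-1.09 to -0.74). This was the 1 lower of 4 genes measured there, where 7.22% of 5405 genes were lower and 17.4% higher. The vegfaa UMIs per cell were nearly alike, 4.22 in uninjured and 4.01 in injured cells, while the median total per cell was 4569 and 6899 UMIs. Shares of cells with a UMI were 70.4% (88 of 125) and 64.2% (88 of 137), and 30.4% and 26.3% after thinning. With every cell thinned to 500 UMIs the log2 ratio was -0.40 (-0.97 to 0.17), and with coarser clusters (Leiden resolution 0.5) it was -0.05 (-0.21 to 0.11). The lower CPM thus depended on how cells were weighted and grouped.

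In the cluster led by c4b and krt91, vegfaa was instead higher after injury: 110 UMIs in 184 uninjured cells (129 CPM) and 123 UMIs in 83 injured cells (262 CPM), a log2 ratio of 1.02 (0.64 to 1.41). This cluster was not among the planned sets. Its ratio was not recomputed with other scalings or cluster resolutions, and no share of all genes was computed for it. The vegfaa UMIs per cell were 0.598 and 1.48. A UMI was present in 57 of 184 and 54 of 83 cells, or 31.0% and 65.1%, and in 6.52% and 15.7% after thinning. Across this cluster the summed fibroblast markers were at 5508 and 11580 CPM and the epicardial markers at 15710 and 11450 CPM, and their part in the ratio was not tested. The pooled set had 643 vegfaa UMIs (373 CPM) in uninjured and 681 UMIs (375 CPM) in injured cells, a log2 ratio of 0.01 (-0.15 to 0.17), while its make-up differed: fibroblast-like cells gave 575133 of its 1724593 uninjured UMIs of all genes and 1129282 of its 1816111 injured ones. Epicardium-like cells had 6 UMIs (20.3 CPM) in 26 and 9 UMIs (41.4 CPM) in 24 cells, too few for a ratio.

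vegfab, the other Vegfa duplicate, had a different home. Cardiomyocyte-like cells were 54.9% of all cells and held 89.9% of the 356 vegfab UMIs, at 51.7 CPM in wildtype (74 UMIs), 28.1 CPM in mutant (57), 28.8 CPM in uninjured (100) and 36.4 CPM in injured cells (89). Fibroblast-like cells had 0 vegfab UMIs in wildtype, mutant and uninjured and 5 in injured. The 0 of 114 wildtype cells allow a share of up to 2.63%, against 9.14% of wildtype cardiomyocyte-like cells with a UMI. Mural-like cells had 0 in each of the 3 libraries that contain them, with 107636 UMIs of all genes in wildtype, 29688 in uninjured and 32419 in injured. The limit of 3 UMIs is under the cardiomyocyte-like level in wildtype. In uninjured and injured it is above that level, so a count of 0 there does not show a difference.

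The vegfab level varied between cardiomyocyte-like clusters more than between libraries. It was highest in the cluster led by ttn.2, the gene of a titin, the giant spring protein of the sarcomere. The level there was 448 CPM in wildtype (18 UMIs in 28 cells), 207 CPM in mutant (26 in 65), 208 CPM in uninjured (9 in 12) and 182 CPM in injured cells (28 in 32). In the cluster led by zgc:122979 and cited4a, mostly of 6-month cells, it was at 71.8 CPM in wildtype (47 UMIs in 223 cells) and 22.6 CPM in mutant cells (20 in 271). In the cluster led by jph2 and ckma at most 3 vegfab UMIs were found per library, at 9.14 CPM or less. Cells of the ttn.2 cluster had a median of 1006 UMIs and those of the zgc:122979 cluster 2887. vegfaa UMIs per cell were also higher in the ttn.2 cluster than over cardiomyocyte-like cells. They were 0.0357 against 0.0228 in wildtype, 0.169 against 0.0419 in mutant, 0.333 against 0.0633 in uninjured and 0.469 against 0.0837 in injured. apln UMIs per cell were higher there in mutant (0.1385 against 0.0838), uninjured (0.25 against 0.0976) and injured cells (0.25 against 0.0711), not in wildtype.

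Between the 6-month libraries vegfab was lower in mutant cardiomyocyte-like cells, a log2 ratio of -0.88 (-1.40 to -0.36). It was the 1 lower of 3 genes measured there, where 7.29% of 4319 genes were lower and 11.6% higher. A UMI was present in 56 of 613 cells (wildtype) and 48 of 788 (mutant), and after thinning in 3.59% and 1.40%. Barcodes left out by the filters had vegfab at 60.7 CPM in wildtype and 53.9 CPM in mutant, with 17 UMIs each. Those levels are above the 38.3 and 20.9 CPM of all kept cells, and their part in the ratio was not tested. Within single clusters the ratio was -1.67 (-2.50 to -0.89) in the zgc:122979 cluster and -1.11 (-2.03 to -0.16) in the ttn.2 cluster, both past the line. The other cardiomyocyte-like clusters had too few vegfab UMIs for a ratio. In the one led by ckmb and sfxn4 the mean was 0.0336 UMIs per cell in wildtype and 0.0393 in mutant. No share of all genes was computed within clusters. After injury vegfab met no call: the log2 ratio was 0.34 (-0.09 to 0.77) in cardiomyocyte-like cells and 0.25 (-0.15 to 0.64) over all cells, so a difference just past 1.5-fold is within both intervals.

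vegfc and vegfd were sparse, with 110 and 102 UMIs in all. vegfc, the ligand best known for lymphatic vessels, had 0 UMIs in wildtype, 5 in mutant, 61 in uninjured and 44 in injured cells. Its highest level was in thrombocyte-like cells, 10 UMIs in 6 of 11 uninjured cells (650 CPM, 312 to 1196) and 17 UMIs in 10 of 19 injured cells (436 CPM, 254 to 697). Those cells also had endothelium and endocardium markers, as given above. Endothelium- and endocardium-like cells had 14 and 11 UMIs (9.74 and 8.20 CPM), and cardiomyocyte-like cells had 0 in every library. In the pooled fibroblast and epicardium set vegfc was lower after injury, 35 UMIs (20.3 CPM) against 16 (8.81 CPM), a log2 ratio of -1.20 (-2.16 to -0.31). Its parts did not move alike: fibroblast-like cells had 3 UMIs (5.22 CPM) in uninjured and 11 (9.74 CPM) in injured, and the c4b and krt91 cluster 18 and 5, with 184 of the 335 uninjured and 83 of the 244 injured cells. The uninjured epicardium-like cells had 14 of those UMIs in 7 of 26 cells, 7 of them in 1 cell, and the 24 injured ones had 0, which allows up to 13.8 CPM.

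Over the 4 libraries together, vegfd was the ligand most limited to the connective tissue set: fibroblast- and epicardium-like cells, 15.7% of all cells, held 92.2% of its UMIs. In that set it was at 27.6 CPM in wildtype (7 UMIs), 16.1 CPM in mutant (6), 20.3 CPM in uninjured (35) and 25.3 CPM in injured cells (46). The log2 ratio after injury was 0.32 (-0.35 to 0.997) and met no call. Injured epicardium-like cells had 12 vegfd UMIs in 6 of 24 cells and uninjured ones 2 in 2 of 26. Of the 13 wildtype vegfd UMIs, 6 were in mural-like cells, in 6 of 92 cells. The mean there was 0.0652 UMIs per cell at a median depth of 954 UMIs. The wildtype pooled set had 0.056 at a median depth of 1734 UMIs. Per UMI of all genes the mural-like level was thus the higher, with 6 vegfd UMIs in 107636 against 7 in 253704. No ratio between classes was computed from these few UMIs. Injured mural-like cells had 1 vegfd UMI in 18 cells.

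angpt1, the activating Tek ligand, was near the limit of detection. It had 6 UMIs in wildtype, 7 in mutant, 18 in uninjured and 27 in injured cells, and cardiomyocyte-like cells held 58.6% of them, close to their 54.9% of cells. Its level in cardiomyocyte-like cells lay between 2.96 and 4.50 CPM in the 4 libraries. In the injured library 5 of the 27 UMIs were in thrombocyte-like cells, in 5 of 19 cells. Their mean was 0.263 UMIs per cell, beside 0.0174 in injured cardiomyocyte-like cells. Over all 18-month cells the log2 ratio after injury was 0.83 (-0.08 to 1.78) and met no call. Without thrombocyte-like cells, a choice made after the data were seen, it was 0.54 (-0.43 to 1.53). Mural cells are a known source of Angpt1 in mouse, and here mural-like cells had 0 angpt1 UMIs in 92 wildtype and 19 uninjured cells and 2 in 18 injured cells. The mural-like cells had only 107636 UMIs of all genes in wildtype and 29688 in uninjured. A count of 0 there, with its limit of 3 UMIs, allows a level above that of cardiomyocyte-like cells.

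angpt2a, the vessel-destabilising partner gene, was the member with the largest ratio after injury. It had 0 UMIs in wildtype and mutant, 4 in uninjured and 53 in injured cells. All 53 injured UMIs were in endothelium- and endocardium-like cells, against 3 in the uninjured class, or 39.5 and 2.09 CPM, a log2 ratio of 4.24 (2.62 to 6.57). In this class 2 of 5 genes measured were higher, angpt2a and aplnra, where 8.53% of 6473 genes were higher and 4.76% lower. The 6-month libraries had 6 cells of this class each, so 0 there does not show that the gene is off.

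The angpt2a UMIs came from few cells. They were in 10 of 267 injured cells (3.75%, 1.81 to 6.78%), with 22 UMIs in 1 cell, 13 in another, 5 and 4 in the next and 1 or 2 in each of the other 6. Uninjured cells with the gene numbered 3 of 369 (0.813%), each with 1 UMI. The large spock3 cluster held 5 of the 10 injured cells, 2.06% of its 243, and the small plvapb cluster the other 5, 20.8% of its 24. Of the 17 uninjured plvapb cluster cells, 2 had the gene. The injured cell with 13 UMIs had 6 of plvapb and 0 of flt1, kdrl and cdh5. Without the top cell of each library the log2 ratio was 4.05 (2.08 to 7.16). With every cell thinned to 500 UMIs it was 1.79 (-0.82 to 5.18), with 5 injured and 2 uninjured UMIs left. That is under the minimum of 20 UMIs, so no call could be made there.

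**Figure D4:**
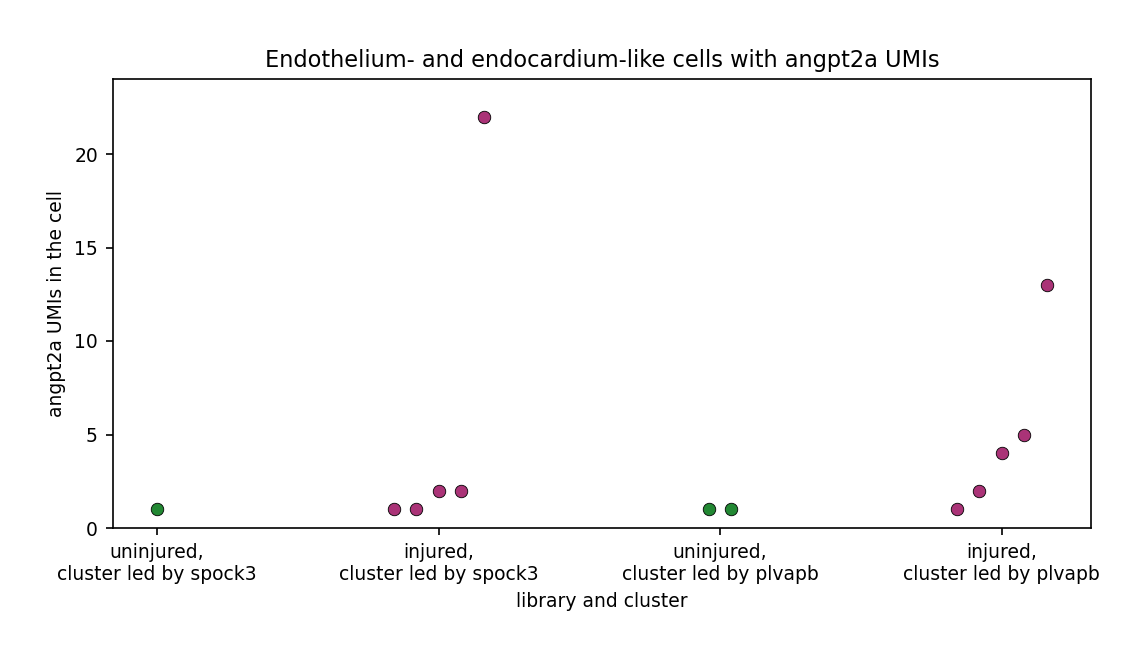
angpt2a UMIs (y axis) in each endothelium- and endocardium-like cell that had any, by 18-month library and cluster (x axis). The 3 uninjured cells have 1 UMI each, and the 10 injured cells have between 1 and 22, with 5 cells in each cluster.

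apln was split between several classes. Endothelium- and endocardium-like cells held 32.4% of the 866 apln UMIs, thrombocyte-like cells 31.6% and cardiomyocyte-like cells 28.5%. The thrombocyte-like share came from 30 cells in all, 0.55% of cells. In them apln was at 7086 CPM in uninjured (109 UMIs in 10 of 11 cells, 5819 to 8548) and at 4227 CPM in injured cells (165 UMIs in 19 of 19 cells, 3606 to 4923). A single uninjured cell had 47 of the 109 UMIs. apln was not used to form this cluster but is among its 10 leading genes, so the level describes the cluster. The part of the cluster's endothelium and endocardium markers in that level was not tested. No macrophage-like cell, 97 uninjured and 64 injured, had an apln UMI.

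In cardiomyocyte-like cells apln was at 29.3 CPM in wildtype (42 UMIs), 32.5 CPM in mutant (66), 27.0 CPM in uninjured (94) and 18.4 CPM in injured cells (45). The intervals of the first 3 overlap. The log2 ratio was 0.15 (-0.43 to 0.74) for mutant over wildtype and -0.55 (-1.10 to -0.03) for injured over uninjured, just short of the 1.5-fold line, and none of the 4 genes measured after injury in these cells met a call (17.9% of 5017 genes higher, 3.21% lower). With TMM scaling the ratio after injury was -0.79 and past the line.

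In endothelium- and endocardium-like cells apln was lower after injury by slightly less than 1.5-fold, 173 UMIs (120.3 CPM, 103 to 140) in 92 of 369 uninjured cells and 108 UMIs (80.5 CPM, 66.1 to 97.2) in 55 of 267 injured cells. The log2 ratio was -0.58 (-0.94 to -0.22). In the spock3 cluster alone it was -0.76 (-1.15 to -0.37), with 160 and 87 UMIs, while the plvapb cluster had 13 UMIs in 4 of 17 and 21 in 4 of 24 cells. In the endothelium- and endocardium-like class as a whole the ratio passed the line with TMM scaling, at -0.66. Over all 18-month cells apln was at 50.4 and 52.7 CPM, a log2 ratio of 0.06 (-0.15 to 0.27), which became 0.90 (0.44 to 1.36) with each cell thinned to 500 UMIs, where every cell has equal weight. Thrombocyte-like cells held 27.3% of the uninjured and 46.9% of the injured UMIs, and without them, a choice made after the data were seen, the ratio was -0.38 (-0.66 to -0.11).

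The pooled fibroblast and epicardium set had 13 apln UMIs in 9 uninjured cells and 31 in 11 injured cells, a log2 ratio of 1.18 (0.20 to 2.24). In the injured set 18 of the UMIs were in 2 cells, with 10 and 8. The ratio was -0.67 with the 5% of barcodes of highest doublet score left out and -0.30 when the 10 genes were kept for clustering, so its direction was not stable, and with TMM scaling it was 0.79 (-0.18 to 1.85) and not called.

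aplnra, an apelin receptor gene, was found mainly in cells other than those with most apln. Fibroblast-like cells held 59.0% of its 293 UMIs and endothelium- and endocardium-like cells 22.9%. Its level in fibroblast-like cells was 86.7 CPM in wildtype (19 UMIs, 52.2 to 135), 80.3 CPM in mutant (25, 52.0 to 119), 69.6 CPM in uninjured (40, 49.7 to 94.7) and 78.8 CPM in injured cells (89, 63.3 to 97.0). The 4 intervals overlap. One injured cell had 30 of the 89 UMIs. Cardiomyocyte-like cells had 0 aplnra UMIs in 613, 788 and 963 cells and 1 in 633 injured cells; the uninjured 0 allows a level of up to 0.863 CPM.

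Over all 18-month cells aplnra was higher after injury, 87 UMIs (11.0 CPM) against 158 (23.7 CPM), a log2 ratio of 1.11 (0.72 to 1.501). Within fibroblast-like cells the ratio was 0.18 (-0.37 to 0.76), and these cells were 6.24% of uninjured and 9.87% of injured cells, with more UMIs per cell after injury. Thinned to 500 UMIs per cell, the value over all cells was 0.11 (-1.31 to 1.48). In the pooled set, where apln and aplnra were higher and vegfc lower of 5 genes measured (25.7% of 7321 genes higher, 4.07% lower, 29.8% either), it was 0.91 (0.41 to 1.43), and not past the line without the top cell of each library (0.58) or with TMM scaling (0.52). Epicardium-like cells had 0 UMIs in 26 uninjured and 10 UMIs in 9 of 24 injured cells.

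In endothelium- and endocardium-like cells aplnra had 26 UMIs (18.1 CPM) in 21 of 369 uninjured and 41 UMIs (30.6 CPM) in 24 of 267 injured cells, a log2 ratio of 0.76 (0.01 to 1.53). The lower bound is at the edge, and with TMM scaling the interval was -0.06 to 1.45, so the call was lost there and also, at 0.54, with at most 10% mitochondrial UMIs. It was lost too without the top cell of each library, at 0.75 (-0.05 to 1.57). The plvapb cluster had 3 UMIs in 1 of 17 uninjured and 16 UMIs in 6 of 24 injured cells, and the spock3 cluster 23 and 25 UMIs. In T and NK cell-like cells 7 UMIs were in 4 of 83 uninjured cells and 15 in a single injured cell of 59; 1 of the 10 genes was measured there, and it met no call (14.7% of 2527 genes higher, 11.7% lower).

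**Figure D5:**
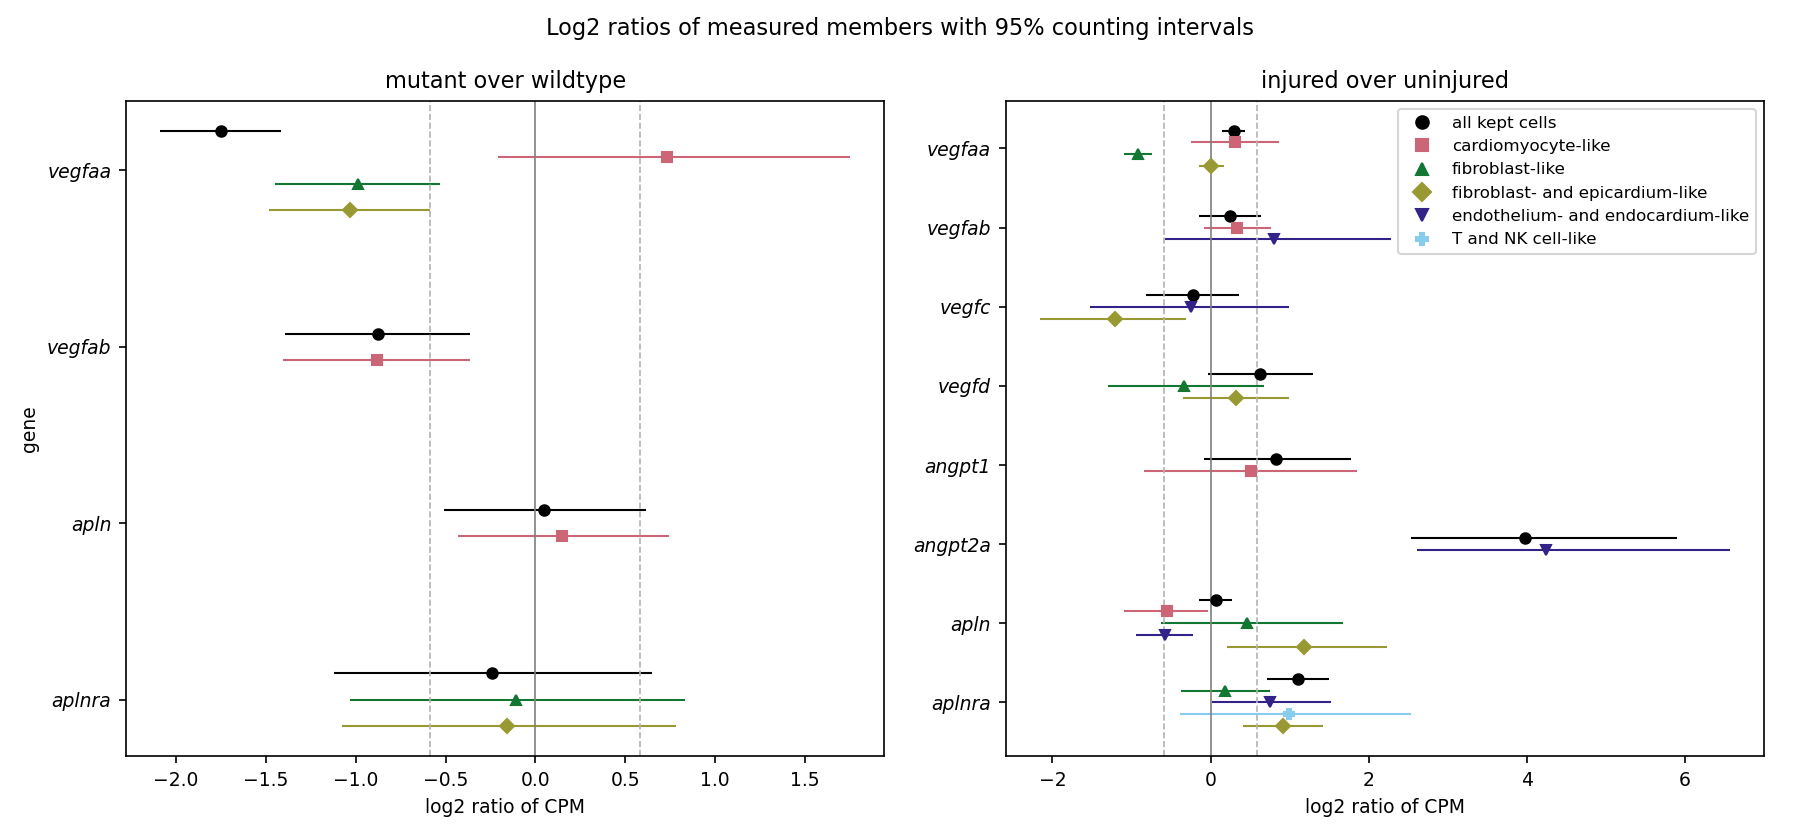
Log2 ratios of CPM (x axis) with 95% counting intervals for each of the 10 genes that could be measured (y axis), by cell set (marker), for mutant over wildtype (left) and injured over uninjured (right). Dashed lines mark 1.5-fold. vegfaa is lower in mutant cells overall and among fibroblast-like cells, and angpt2a has the largest ratio after injury.

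The receptors and other genes of these pathways were taken from 7 lists with 41 symbols, of which 40 were found. Over all kept 6-month cells 13 could be measured, with 0 higher and 2 lower, beside 5.26% higher and 16.0% lower of all 6564 genes, so the count is near the background. Both lower genes, egln3 and notch1b, had most of their wildtype UMIs in mural-like cells. egln3, a prolyl hydroxylase that marks hypoxia-inducible factors for breakdown, had 18 wildtype UMIs (13 mural-like) and 4 mutant UMIs, a log2 ratio of -2.65 (-4.68 to -1.05). notch1b, a Notch receptor gene, had 22 wildtype UMIs (17 mural-like) and 7 mutant UMIs, a log2 ratio of -2.14 (-3.61 to -0.86). In cardiomyocyte-like cells, where 11.6% of all genes were higher, 1 of 7 was higher, epas1a, a hypoxia-inducible factor subunit, with 11 UMIs (7.68 CPM) in wildtype and 40 (19.7 CPM) in mutant cells, a log2 ratio of 1.36 (0.37 to 2.47). In fibroblast-like cells 0 of 5 met a call.

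Among VEGF receptors, kdrl had 1177 UMIs, flt1 858 and nrp1a 301. kdrl was at 399 CPM in both uninjured (574 UMIs) and injured (535 UMIs) endothelium- and endocardium-like cells. flt1, whose product binds Vegfa with little signalling, was lower there after injury, 518 UMIs (360 CPM) against 305 (227 CPM), a log2 ratio of -0.66 (-0.87 to -0.46). Of the 6 receptor genes measured in that class it was the only one past the line. flt4, a receptor gene for Vegfc, was found in the small plvapb cluster, with 13 of 14 uninjured and 17 of 17 injured UMIs. nrp1a, a VEGF co-receptor, was found in fibroblast-like cells as well, at 39.99 CPM in uninjured and 45.2 CPM in injured cells. Over all cells it was higher after injury with a log2 ratio of 0.73 (0.37 to 1.104), as were nrp2a, 0.87 (0.09 to 1.67), and nrp2b, 0.88 (0.02 to 1.77). With TMM scaling none of these 3 met the call, at 0.43 for nrp1a and 0.57 for each of nrp2a and nrp2b. Of the other VEGF family ligands pgfb had 44 UMIs and vegfbb 0.

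Of the list made for processing of Vegfc and Vegfd, 2 genes could be measured in the pooled set. After injury svep1 was higher there and ccbe1 lower, where 25.7% of 7321 genes were higher and 4.07% lower. svep1, listed as a matrix protein gene needed for lymphatic growth in zebrafish, was also higher in fibroblast-like cells. It had 2 UMIs (3.48 CPM) against 36 (31.9 CPM), a log2 ratio of 3.20 (1.24 to 6.30), where 17.4% of 5405 genes were higher. ccbe1, whose product helps to activate Vegfc, was lower in the pooled set, 80 UMIs (46.4 CPM) against 31 (17.1 CPM), a log2 ratio of -1.44 (-2.09 to -0.83). Most of the uninjured ccbe1 UMIs, 67 of 82, were in the c4b and krt91 cluster. That cluster gave 853646 of the 1724593 uninjured UMIs of the pooled set and 469416 of the 1816111 injured ones. The part of this in the ccbe1 ratio was not tested. adamts3, a protease of Vegfc, had 21 UMIs in all.

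The genes of the angiopoietin receptor Tek, its relative Tie1 and ptprb, a receptor phosphatase that acts on Tek, had most UMIs in endothelium- and endocardium-like cells and met no call there. tie1 was at 105 CPM in uninjured and 129 CPM in injured cells, ptprb at 129 and 143 CPM, and tek at 73.7 and 68.6 CPM. In macrophage-like cells, where none of the 10 genes could be measured, tie1 was the 1 of 6 pathway genes called, with 8 and 21 UMIs and a log2 ratio of 1.95 (0.72 to 3.33), against 6.33% of 3903 genes higher and 5.89% lower. Of the other apelin system genes, the second receptor aplnrb had 59 UMIs, mainly in endothelium- and endocardium-like cells (23 in uninjured, 26 in injured). aplnr2 had 22, of which 13 were in wildtype mural-like cells, and apela 0.

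In the hypoxia-inducible factor system, epas1b, hif1ab and hif1al had most UMIs. epas1b, an endothelial factor, was at 678 CPM in uninjured and 481 CPM in injured endothelium- and endocardium-like cells and short of the line. In that class arnt2, egln2 and egln3 were higher, and for egln3 there were 31 UMIs (21.6 CPM) and 67 (49.96 CPM), a log2 ratio of 1.21 (0.58 to 1.88). In cardiomyocyte-like cells hif1ab was higher, 26.7 against 47.5 CPM, a log2 ratio of 0.83 (0.42 to 1.24), as was egln3, with 0.82 (0.13 to 1.53), a call lost with TMM scaling at 0.58. hif1al, listed in RefSeq with the synonym Hif-3alpha, was lower in fibroblast-like cells, 62.6 against 22.1 CPM, a log2 ratio of -1.5 (-2.30 to -0.72), and it was also lower in the pooled set, with vhl at -0.65 (-1.29 to -0.02). Over all 18-month cells epas1a was lower, -0.78 (-1.40 to -0.17), and egln2 and egln3 higher, 0.61 (0.27 to 0.94) and 1.02 (0.62 to 1.44), of which egln2 lost the call with TMM scaling.

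Of the genes of angiogenic endothelium, dll4, notch1b and plvapb had most UMIs. dll4, a Notch ligand of tip cells, was at 221 CPM in uninjured and 272 CPM in injured endothelium- and endocardium-like cells and met no call there. plvapb, which leads the small cluster, was higher over the class, 47 UMIs in 14 of 369 and 78 in 18 of 267 cells, a log2 ratio of 0.83 (0.29 to 1.39), beside that cluster's 17 and 24 cells. hey2, a Notch target, was higher as well, 18 against 33 UMIs, a log2 ratio of 0.98 (0.10 to 1.89). In T and NK cell-like cells epas1b was lower and dll4 higher, but 19 of the 25 injured dll4 UMIs were in 1 cell. The endothelium and endocardium markers were at 2949 CPM in uninjured and 2122 CPM in injured cells of that class. Its own T and NK cell markers were at 6087 and 5393 CPM, and the part of this mixture in the ratios was not tested. In all, 30 pathway genes were measured over the 18-month cells, of which 8 were higher and 2 lower, beside 22.8% and 3.83% of all 11298 genes. TMM scaling, which moves every log2 ratio there by -0.30, turned that split round to 3 higher and 5 lower: nrp1a, nrp2a, nrp2b, egln2 and hey2 lost the call, and flt1, epas1b and hif1al became lower. In endothelium- and endocardium-like cells 22 were measured, of which 5 were higher and 1 lower, also with TMM scaling, beside 8.53% and 4.76% of all 6473 genes.

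The genes most like each member in pattern were found over 19 units, each a class in a library with at least 20 cells, by Pearson's r of log2(CPM + 10) among 7263 genes. The units share libraries and differ in depth, so r is a description. vegfaa was most like add3b (0.95), col18a1b (0.94) and rasl11a (0.93), where col18a1b encodes a basement membrane collagen. vegfab was most like usp28, si:ch73-54f23.4 and si:dkey-85k7.7, each at 0.95. vegfd was most like hoxb3a (0.94), pdgfrb (0.93) and twist1a (0.93), and aplnra like rpz2 (0.97), col5a1 (0.93) and htra1b (0.92). The likeness was looser for apln, with palm2akap2 (0.90), bmp16 (0.88) and gpd1b (0.86), and for vegfc, with fabp10a (0.81), pcolce2b (0.75) and tent5bb (0.74). Thrombocyte-like cells, where apln and vegfc were highest, were too few to be among the units.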

How the data were processed

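Libraries came from a 10x 3' kit, version 3.1 in the labels' protocols. The authors' deposited files hold UMI counts for each feature and barcode. Cell Ranger 4.0.0 produced them, per the file headers; the submitters' processing notes name GRCz11 and Seurat. The treatment of reads that match a pair of duplicated genes is not stated. The 25110 features were summed to 24438 symbols. Kept barcodes had 200 or more genes and no more than 25% of UMIs from mitochondrial genes. Scrublet marked 13 of 5470 barcodes (0.238%), too few for the caller to have worked, and no other doublets were removed.

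Log counts per 10000 of 2000 variable genes went into the clustering, leaving out the 10 genes, the pathway genes, the reporters with pdgfrb, and genes of mitochondria, ribosomal proteins and haemoglobins. From 30 principal components and 15 neighbours, Leiden clustering at resolution 1.0 (scanpy 1.11.5, without integration) gave 19 clusters. Naming used 12 marker lists (134 of 136 symbols found). A cluster was named by its top list on mean scaled level, if that was at least 0.2 and 3 markers reached 0.25 of their top level, unless another list had more of the 10 leading genes or under 75% of cells had 2 UMIs of the list. UMIs were summed per class and compared as CPM of the class total, for classes of at least 50 cells in both libraries of a pair. No count model was fitted, since each group has 1 library. Alternatives were TMM scaling (edgeR 4.0.16), other filters, resolutions and doublet treatment, and thinning to 500 UMIs. The interval step was tested on simulated Poisson counts, the spread that the interval itself assumes. That test does not cover genes with many of their UMIs in 1 cell.

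Members, lists and rules were chosen with earlier results of these data known. All 10 members are named, with the 3 most counted genes of each pathway list, pathway genes past 1.5-fold, and the 3 genes most like each member among those with at least 100 UMIs.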

Additional observations from a re-analysis of the deposited data

Results flagged for a closer look

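Barcodes left out by the filters, 6338 over the 4 libraries, also held counts of these genes: 77 UMIs of vegfaa, 199 of vegfab, 22 of angpt1 and 87 of apln. In CPM, vegfab was at 24.8 in the barcodes left out and 18.4 in kept cells, angpt1 at 2.75 and 2.998, apln at 10.9 and 44.8, and vegfaa at 9.61 and 98.2. The 6 other genes had 3 UMIs or fewer each there.

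The log2 ratio of vegfaa, injured over uninjured, was -0.91 in fibroblast-like cells and 1.02 in the cluster led by c4b and krt91. The 2 values have opposite signs in the same 2 libraries, and the difference between them was not tested, since each group has 1 library.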

How the results depend on the processing

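No paired analysis was possible because each group has 1 library. Of the counts of called genes under alternatives, 200 were within 1.5 times the main count and 36 were not. Of the values of single genes, 371 moved by less than their counting error, 26 moved further and 2 reversed: apln after injury in the pooled fibroblast and epicardium set, 1.18 in the report, was -0.67 without the 5% of barcodes with the highest doublet scores and -0.30 with members and pathway genes kept for clustering. Some of the 371 could not have moved and say nothing about stability. The minimum of UMIs does not enter a ratio, so dropping it leaves each value as it was. Leaving out thrombocyte-like cells cannot change mutant over wildtype values, since neither library has such cells. The cause of a change was not tested, except that thinning to 500 UMIs leaves fewer UMIs and so fewer measured genes.

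Thinned, mutant over wildtype, 1 member was called over all cells and 0 pathway genes over all and over cardiomyocyte-like cells. Thinned, injured over uninjured, over all cells 1 member and 1 pathway gene were called, and 0 pathway genes in each of the cardiomyocyte-like, fibroblast-like, endothelium- and endocardium-like, macrophage-like, T and NK cell-like and pooled sets. Members called were then 0 in fibroblast-like cells (report: 1), 0 in endothelium- and endocardium-like cells (report: 2) and 0 in the pooled set (report: 3). A gene under 20 UMIs after thinning cannot be called, so a count of 0 does not show that a difference is absent. The share of all genes called was not computed under the alternatives. With no minimum of UMIs, pathway calls were 5 over all and 2 over cardiomyocyte-like cells for the mutant, and after injury 4 in fibroblast-like, 3 in macrophage-like, 5 in T and NK cell-like and 9 in pooled cells, with 2 members called in T and NK cell-like cells (report: 0). Without the top cell of each library, 1 pathway gene was called over all mutant and wildtype cells and 1 in T and NK cell-like cells, and 1 member in endothelium- and endocardium-like and 1 in pooled cells. With TMM scaling, 1 member (apln) and 1 pathway gene were called in cardiomyocyte-like cells after injury and 1 member in the pooled set. At resolution 0.5, 2 members and 4 pathway genes were called in fibroblast-like cells. In T and NK cell-like cells 1 member was called at resolution 2.0, with at most 10% mitochondrial UMIs and with marked doublets kept, and 0 pathway genes without the top doublet scores. With marked doublets kept, 2 pathway genes were called in macrophage-like cells. Without mural-like cells, chosen after seeing the data, 1 pathway gene was called for the mutant over all cells. Depth limits the sparse genes: in thinned endothelium- and endocardium-like cells angpt2a had too few UMIs left for a call.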
